A study of Mus musculus with 6 samples.

Results

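Lin28a, Lin28b, Trim71, Igf2bp1, Igf2bp2, Igf2bp3, Hmga1, Hmga1b and Hmga2, 9 genes known for their part in developmental timing, were described in mouse nephron progenitors. They were chosen by name, from knowledge of the let-7 pathway and on earlier results of these data, and are 9 of the 27179 gene entries measured. Hmga1 and its near-identical copy Hmga1b were also summed. Whole-transcriptome RNA was measured in Six2+ cells, the progenitors of the nephrons, sorted from kidneys at E16.5. The control group was Six2TGC and the mutant group was Six2TGC;miR-17~92fl/fl, with 3 libraries each. A library was 1 pool from 4 embryos, so 12 embryos stand behind each group but only 3 values. Six2TGC is a transgene that carries green fluorescent protein, by which the cells were sorted, and Cre recombinase. Both groups carry it, Cre acts in Six2-expressing cells and their descendants, and the labels name a floxed miR-17~92 cluster of microRNAs for the mutants only. An effect of the deletion and one of other alleles brought in with the floxed copies cannot be told apart in this design.

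Lin28a and Lin28b are RNA-binding proteins that block the maturation of let-7 microRNAs, and let-7 in turn represses the messenger RNAs of Lin28, Trim71, the Igf2bp genes and Hmga2. Lin28 and Igf2bp levels are high early in development and fall as let-7 builds up. In the kidney, prolonged Lin28 activity extends the time over which nephron progenitors are kept.

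The seeds of both microRNA groups are shown first, because all later site counts are matches to these letters. Capitals mark the seed, bases 2 to 8 from the 5′ end. The mature sequences are from RefSeq (GRCm38), where 9 mature names share the let-7 seed; 4 of them are shown, with 1 from each seed group of the deleted cluster.
mmu-let-7a-5p: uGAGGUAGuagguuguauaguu
mmu-let-7d-5p: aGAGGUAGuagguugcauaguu
mmu-let-7e-5p: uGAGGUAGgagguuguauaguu
mmu-miR-98-5p: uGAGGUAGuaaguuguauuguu
mmu-miR-17-5p: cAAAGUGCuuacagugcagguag
mmu-miR-18a-5p: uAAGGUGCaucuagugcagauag
mmu-miR-19a-3p: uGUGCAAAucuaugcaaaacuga
mmu-miR-92a-3p: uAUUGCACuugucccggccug
The let-7 seed GAGGUAG differs from the 4 seeds of the cluster, so no site counted below belongs to let-7 and to the cluster at once. miR-20a shares the seed of miR-17, and miR-19b that of miR-19a. Related microRNAs made from other loci, which were not deleted, also carry seeds of the cluster.

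All 9 genes had at least 1 let-7 site in the longest annotated 3′ UTR. A site was the 8-base match CTACCTCA on the transcript's strand, or the 7-base word left when its last or its first letter is dropped, and an 8-base match counted once. Hmga2, an architectural chromatin protein, had 7 sites in 3014 bases. Trim71, a ubiquitin ligase that represses messenger RNAs and is itself a classic let-7 target, had 6 in 5512 bases. Igf2bp1 and Lin28b had 5 each, in 6337 and 4445 bases. Lin28a and Igf2bp2 had 2 each, and Igf2bp3, Hmga1 and Hmga1b had 1 each.

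Over tested genes with an annotated 3′ UTR, 18.6% of 11716 had such a site. Among those with a UTR at least as long as the shortest of the 9, which is 1183 bases, the share was 27.9% of 6644. At least 5 sites were found in 4 of the 9 genes and in 0.128% of the tested genes. The 9 UTRs held 1.06 sites per kb together, and the tested genes 0.127. These genes are known as let-7 targets and were listed for that, so the counts describe them and are no independent evidence.

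Neighbouring let-7 sites in 4 of the 9 genes began within 30 bases of each other, against 0.162% of the tested genes. The closest pair was 17 bases apart in Igf2bp2, followed by 19 in Igf2bp1, 20 in Hmga2 and 26 in Trim71. The windows below, from the GENCODE vM21 transcripts of the same build, end with the second site of the pair, in capitals. The first site of Igf2bp1, Igf2bp2 and Hmga2 can be read whole or in part in lower case before it.
Igf2bp1, chr11:95961760-95961787, minus strand: aactacctcaaggtgtgaagtTACCTCA
Igf2bp2, chr16:22059457-22059484, minus strand: aaagctacctcaggtgtttttTACCTCA
Hmga2, chr10:120361672-120361699, minus strand: actacctcttaagtcccagtaTACCTCA
Trim71, chr9:114509021-114509048, minus strand: caattttggcaaaaagttgtCTACCTCA
In Igf2bp2 the second let-7 site is followed at once by a miR-18 site, shown in capitals in the next window.
Igf2bp2, chr16:22059450-22059477, minus strand: cctcaggtgttttttacctcaGCACCTT
All of these lie in 3′ UTR exons. The Trim71 pair is among 3 of its 6 let-7 sites that lie beyond the end of the RefSeq gene, in a longer GENCODE transcript.

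The single let-7 site of Hmga1 and that of Hmga1b have the same window, which is shown because the pair's reads are hard to separate.
Hmga1, chr17:27563271-27563298, plus strand: atcttctcctctgttcacaaaCTACCTC
Hmga1b, chr11:120763992-120764019, plus strand: atcttctcctctgttcacaaaCTACCTC
Lin28b and Igf2bp3 are shown as 8-base examples.
Lin28b, chr10:45381022-45381049, minus strand: ccttcacccgggcgggaagtCTACCTCA
Igf2bp3, chr6:49086787-49086814, minus strand: aaacgtgcatttttactcaaCTACCTCA
Igf2bp3 has this 1 site only, and Hmga1 and Hmga1b have no 8-base let-7 site.

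Sites for the deleted cluster were fewer. They were counted in the same way, from the 8-base match of each seed and the 7-base words within it. For miR-17 (GCACTTTA), Igf2bp1 had 2 and Trim71, Hmga1, Hmga1b and Hmga2 had 1 each, against 23.5% of tested genes with any. The Trim71 site lies beyond the end of the RefSeq gene, in the longer GENCODE transcript. For miR-18 (GCACCTTA), Lin28a, Igf2bp1 and Igf2bp2 had 1 each, against 16%. For miR-19 (TTTGCACA), Lin28b and Igf2bp1 had 1 each, against 21.3%. For miR-92 (GTGCAATA), Lin28a, Lin28b and Hmga2 had 1 each, against 14.9%. These 4 shares are over UTRs of all lengths, with a median of 1410 bases against 2775 for the 9 genes. No share matched for length was taken for the cluster. Igf2bp3 had none for the cluster. The other 8 had at least 1 site of 7 or 8 bases. Igf2bp1 was the only one of the 9 with an 8-base site for the cluster, and it had 2 of them. Of tested genes, 4.68% had an 8-base site for miR-17, 1.86% for miR-18, 6.57% for miR-19 and 3.04% for miR-92, again over UTRs of all lengths.
Igf2bp1, miR-17, chr11:95961937-95961964, minus strand: atgcatattagccaggtgatGCACTTTA
Igf2bp1, miR-19, chr11:95963349-95963376, minus strand: gggcctggctggagatcaggTTTGCACA
Both lie nearer to the stop codon than the first let-7 site of this UTR, at bases 144 and 1556 against 1715. A match is a description of letters and not a measured binding site, and which 3′ ends these cells use was not measured.

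**Figure D1:**
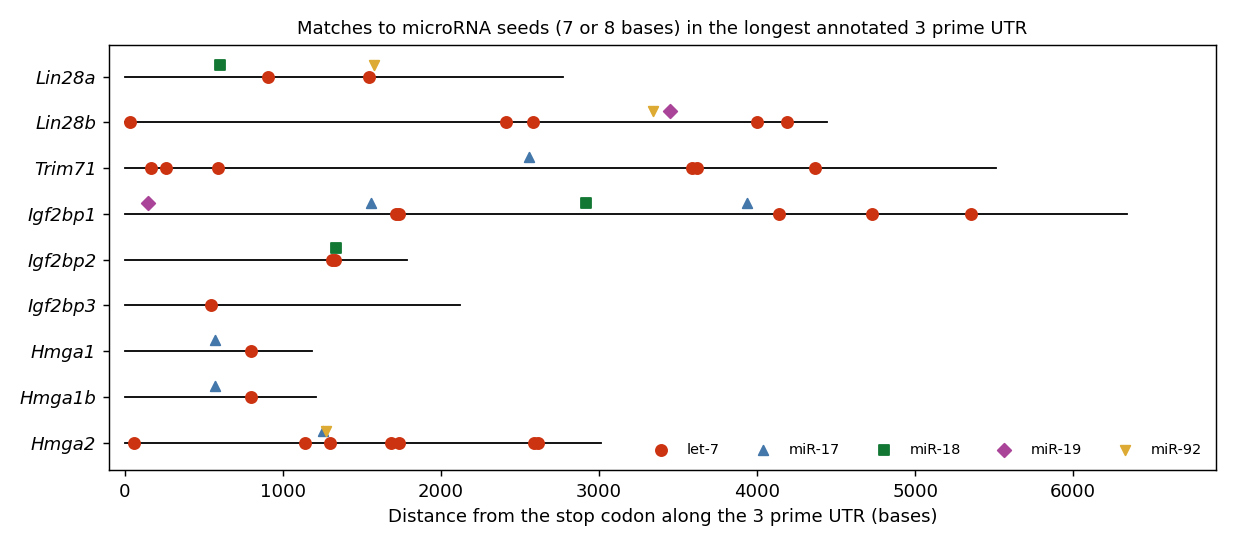
Seed matches along the longest annotated 3′ UTR of each of the 9 genes, with distance from the stop codon in bases on the x axis; a line is the UTR, red dots are let-7 sites and the raised symbols are sites of the deleted cluster. Hmga2 carries 7 let-7 sites in 3014 bases, and Igf2bp1 carries sites for let-7, miR-17, miR-18 and miR-19.

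Levels are given as RPKM, the deposited unit, in which reads are scaled by gene length and library depth. Recovered depth ranged from 27602025 to 36134381 reads per library, and 1 read on a gene of 1 kb was worth 0.0277 to 0.0362 RPKM. Mitochondrial ribosomal RNA took 27.0% to 30.4% of reads in controls and 32.2% to 38.2% in mutants, with the highest share in mutant 2. Mir17, the entry of the first microRNA of the cluster, had 73 reads in controls and 2 in mutants (limma adjusted p 8.54e-05), in the direction of the labels. Its host transcript Mir17hg was at 33.6 to 52.9 RPKM in controls and 183 to 259 in mutants. Mature microRNAs were not measured. Six2 lay between 69.9 and 104 RPKM in controls and between 57.0 and 77.0 in mutants. Cited1 lay between 19.9 and 27.9 RPKM in controls and between 15.5 and 21.2 in mutants. Markers of the labelled progenitors were thus present in each of the 6 libraries.

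Hmga2 was the most abundant of the 9 genes, at a mean of 128 RPKM, above 99.2% of the 23229 entries with any read. Igf2bp2 followed at 37.7 RPKM, Igf2bp3 at 21.7 and Igf2bp1 at 7.90, with no overlap between the ranges of these neighbours over the 6 libraries. Hmga1b averaged 6.57 RPKM, Hmga1 2.24 and Trim71 0.681. In this middle stretch of the order, from Igf2bp1 to Trim71, the ranges of neighbours overlapped; Igf2bp1 was above Hmga1b in 4 libraries of 6, Hmga1b above Hmga1 in 4 and Hmga1 above Trim71 in 5. Lin28b averaged 0.276 RPKM, below Trim71 in all 6 libraries. Lin28a came last with 2 reads in all. The order is over both groups and RPKM allows it between genes, as far as the counted length fits the transcript.

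**Figure D2:**
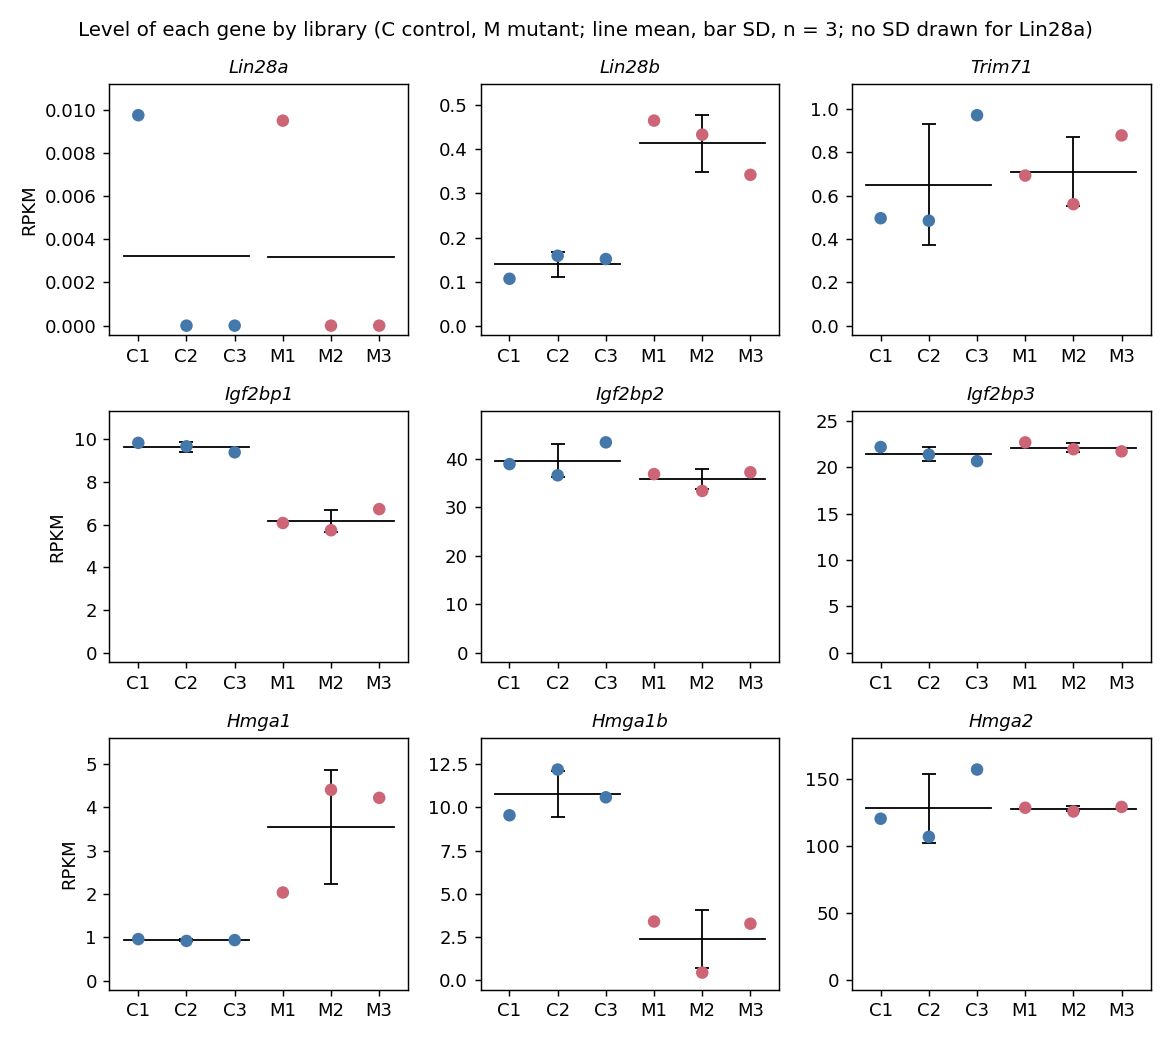
RPKM of each gene in control (blue, C1 to C3) and mutant (red, M1 to M3) libraries, on linear axes that differ between panels; lines are group means and bars are SD over 3 libraries. Mutant values of Lin28b and Hmga1 lie above all control values and those of Igf2bp1 and Hmga1b below, while the groups overlap in the other panels.

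The genotype differences of these genes are a description, since the genes were picked with this contrast known. Of the 9, 7 passed the filter of a mean of 0.5 RPKM, with Trim71 just inside it at 0.681 and Lin28b just outside it at 0.276. In the limma fit over 13463 genes, 3 of the 7 were past an adjusted p of 0.05, with 1 higher and 2 lower. Over all tested genes 3.13% were past it, 1.32% as higher in mutants and 1.81% as lower. For 3 of the 7 the values of the groups did not overlap, against 25.1% of all tested genes. Without mutant 2, 1 of the 7 was past the threshold, and the threshold was missed most often by Igf2bp1. Nothing is read from these counts, and no p is given for the 9 genes. The median log2 fold change of all tested genes was -0.125, a shift that is part of each value below, and that of the 7 was 0.02. In sorted bulk RNA, fewer cells of a type and less RNA per cell cannot be told apart.

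Positions below are those of the RefSeq genes on GRCm38 (mm10), with Entrez Gene numbers. For 6 of the 9 genes at most 3.5% of 100-base transcript words occur in another gene, and the exceptions, Igf2bp3, Hmga1 and Hmga1b, are given with their values.

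Lin28a was nearly silent. The gene (83557, chr4:134003330-134019196) had 1 read in control 1, 1 read in mutant 1 and 0 in the other 4 libraries. A count of 0 allows up to 3 reads of a library, so no difference was detectable at this depth.

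Lin28b (380669, chr10:45376617-45486314) was low in all libraries and higher in the mutants. It had 17, 31 and 23 reads in controls and 76, 65 and 51 in mutants, which is 0.107, 0.159 and 0.151 RPKM against 0.465, 0.433 and 0.342. The groups did not overlap, and the lowest mutant was above the highest control by more than the range of the controls. Controls averaged 0.139 ± 0.0282 RPKM and mutants 0.413 ± 0.0637 (SD, n = 3 each). From the summed reads the mutant rate was 2.96 times that of the controls, with an exact 95% interval of 2.24 to 3.94 that covers counting error only. Lin28b was below the filter and so was not in the main fit. The alternative with no filter included all 9 genes and called 0 of them, with 143 genes called over the transcriptome. Its 3′ UTR holds 5 let-7 sites, 1 miR-19 site and 1 miR-92 site.

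Trim71 (636931, chr9:114511268-114564369) was at 0.496, 0.485 and 0.972 RPKM in controls and 0.693, 0.561 and 0.878 in mutants, from 76 to 142 reads a library. Control 3 was the highest of all 6, and the groups overlapped. The log2 fold change, mutant minus control, was 0.09 ± 0.23 (SE), and it changed sign when control 2 or mutant 3 was left out. The counted length recovered for Trim71 was 5197 bases, less than the 5512 bases of its GENCODE 3′ UTR alone. At that length not all of the UTR can have been counted, but a whole multiple of the length would fit as well.

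The Igf2bp proteins bind messenger RNAs and steady or localise them. Igf2bp1 (140486, chr11:95957163-96005944) was at 9.82, 9.66 and 9.38 RPKM in controls and 6.07, 5.73 and 6.72 in mutants. Every mutant was below every control, and the gap between the groups was wider than the range within either. Its log2 fold change was -0.60 ± 0.14 (SE), which became -0.48 under median-of-ratios or quantile scaling, where the median of all genes lay nearer to 0. Igf2bp1 was past the limma threshold in 8 of 17 alternatives, and not with a replicate block, no trend, no filter, depth without mitochondrial ribosomal RNA, or without control 1, control 2 or any 1 of the 3 mutants. The means were 9.62 ± 0.224 and 6.17 ± 0.503 RPKM (SD, n = 3 each), on 7561 control and 4430 mutant reads. With 4 sites for the deleted cluster, Igf2bp1 had more of them than any other of the 9. Its 3′ UTR of 6337 bases is also the longest of the 9, and this count is not scaled to length.

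Igf2bp2 (319765, chr16:22059009-22163299) did not separate the groups. It was at 38.9, 36.6 and 43.4 RPKM in controls and 36.8, 33.4 and 37.2 in mutants. Control 3 was the highest and mutant 2 the lowest, and mutants 1 and 3 were above control 2. The log2 fold change was -0.14 ± 0.13 (SE), close to the median of all genes, and it was 0.02 under quantile scaling.

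Igf2bp3 (140488, chr6:49085218-49215469) was the steadiest of the 3 Igf2bp genes. It was at 22.2, 21.3 and 20.6 RPKM in controls and 22.7, 21.9 and 21.7 in mutants, with overlap. The log2 fold change was 0.05 ± 0.12 (SE), and 0.17 under median-of-ratios scaling. By shared words, 17.5% of its 100-base transcript words also occur in Malsu1, a neighbour whose RefSeq gene overlaps it. Malsu1 is transcribed from the other strand and without a stated strand setting some reads may belong to either.

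The 3 genes of the family therefore stood at different levels and showed different values between the groups, with Igf2bp1 alone lower in all mutants. Whether the log2 fold changes of the 3 differ from each other was not tested.

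Hmga proteins bind the minor groove of AT-rich DNA and shape chromatin in growing and undifferentiated cells. Hmga2 (15364, chr10:120361268-120476469) was at 120, 107 and 157 RPKM in controls and at 129, 126 and 129 in mutants. The controls spanned the mutants, with control 2 the lowest and control 3 the highest of the 6. The means were 128 ± 26.0 and 128 ± 1.85 RPKM (SD, n = 3 each), and the log2 fold change was 0.02 ± 0.15 (SE). It was -0.10 without control 2 and 0.17 without control 3. Control 3 was also the highest library for Trim71, Igf2bp2 and Six2 and the lowest for the summed markers of the interstitium, the stroma around the progenitors. These sums were 142, 202 and 86.9 RPKM in controls and 153, 245 and 217 in mutants over 12 markers, and their part in the Hmga2 spread was not tested.

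Hmga1 and Hmga1b had values in opposite directions. Hmga1, on chromosome 17, had 29, 34 and 27 reads in controls and 63, 125 and 119 in mutants, or 0.962, 0.920 and 0.939 RPKM against 2.03, 4.40 and 4.21. The controls were nearly equal, and mutant 1 lay between them and the other mutants. Its log2 fold change was 1.43 ± 0.24 (SE). Hmga1b, on chromosome 11, had 450, 705 and 476 reads in controls and 164, 19 and 144 in mutants, or 9.55, 12.2 and 10.6 RPKM against 3.39, 0.428 and 3.26. All mutants were below all controls, and mutant 2 stood apart from the other mutants. The log2 fold change was -2.23 ± 0.42 (SE), and -1.55 without mutant 2. Mutant 2 is also the library with the largest share of mitochondrial ribosomal RNA, and the part of this in the Hmga1b value was not tested.

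The sequences of the pair are why they are set side by side. Hmga1 (15361, chr17:27556574-27563672) has 5 exons in the transcript that aligned best, and Hmga1b (111241, chr11:120762794-120764392) has 1. Over 1602 aligned bases they were 99.81% identical with no gaps. The 3 differences, written as the Hmga1 base, the position from the 5′ end of the Hmga1b transcript and the Hmga1b base, were A657G, A784G and G1246T, all in the 3′ UTR. The longest identical run was 656 bases. Of the 100-base words of Hmga1b, the length of 1 read, 78.8% also occur in Hmga1, and 40.1% of the words of Hmga1 occur in Hmga1b. A read from such a word cannot be placed on either by its sequence alone. These shares are for single reads, while the libraries were read in pairs, so a mate outside such words could place a read. The sources used here do not give how reads with more than 1 place were treated. The recovered counted length, the smallest that gives whole reads in all libraries, was 1599 bases for Hmga1b but 1023 for Hmga1. The latter is shorter than the Hmga1 3′ UTR of 1183 bases. Either part of Hmga1 was not counted, or its length and reads are a whole multiple of those recovered. These cannot be told apart here.

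As a sum, the pair had fewer reads in the mutants. It was at 16.3, 20.5 and 17.9 RPM (reads scaled to depth as in RPKM, but not to length) in controls and 7.50, 5.18 and 9.53 in mutants. All mutants were below all controls, by a factor of 2.46 between the means (18.2 ± 2.12 and 7.40 ± 2.17 RPM, SD, n = 3 each). Hmga1b had 1631 reads in controls and 327 in mutants, a loss of 1304, while Hmga1 went from 90 to 307, a gain of 217. Hmga1b went from 17.2 ± 2.14 to 3.77 ± 2.68 RPM and Hmga1 from 0.962 ± 0.0215 to 3.63 ± 1.34 (SD, n = 3 each). The recovered gain on Hmga1 was smaller than the recovered loss on Hmga1b. Reads on an uncounted part of Hmga1 would be missing from both the gain and the sum. If its length is a whole multiple of the recovered one, the Hmga1 reads, the gain and the sums are larger and the factor is smaller. The reads, RPM and factor of 2.46 given here therefore hold at the recovered length only.

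The split of the pair also differed between libraries. At the recovered length, Hmga1 took 6.05%, 4.60% and 5.37% of the pair's reads in controls and 27.7%, 86.8% and 45.3% in mutants. A length of Hmga1 that is a whole multiple of the recovered one would raise all of these shares and change their intervals. The exact 95% intervals of the 3 controls overlapped, at 3.21% to 8.58% in all. Those of the 3 mutants, 22.03% to 34.06%, 80.2% to 91.9% and 39.1% to 51.5%, overlapped neither each other nor the controls. At these reads the 3 mutant pools differed from each other beyond counting error in which copy the reads were assigned to. The cause was not tested.

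**Figure D3:**
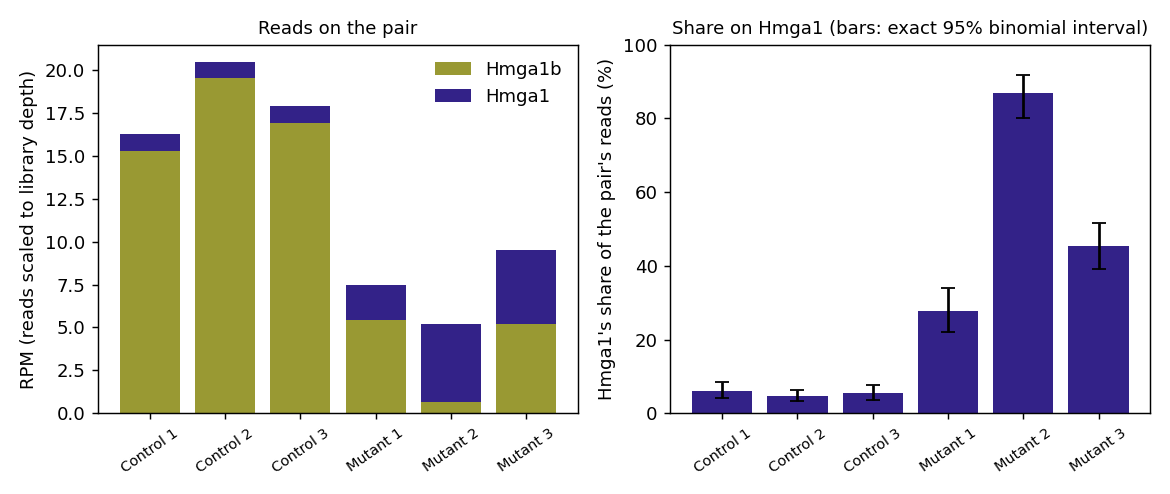
Left, RPM on Hmga1b (olive) and Hmga1 (blue), stacked, in the 6 libraries; right, the percent of the pair's reads on Hmga1 with exact 95% binomial intervals. Reads of Hmga1 are those at its recovered length. The stacked sum lies between 16.3 and 20.5 in controls and between 5.18 and 9.53 in mutants. Mutant 2 has 86.8% of the pair's reads on Hmga1.

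The let-7 side of the pathway was visible only as hairpin or host entries, since mature let-7 was not measured. Of 12 hairpin entries, 5 reached a mean of 3 reads a library. Their sum over all 12 was 103, 79 and 76 reads in controls and 90, 63 and 74 in mutants, and the mutant rate was 0.963 times that of controls with an exact 95% interval of 0.802 to 1.16. The sum covers entries that went both ways. Mirlet7d had 17, 14 and 10 reads in controls and 32, 20 and 14 in mutants, a rate of 1.76 times that of controls (exact 95% interval 1.18 to 2.67). Mirlet7f-1 had 28, 39 and 17 in controls and 17, 22 and 12 in mutants, a rate of 0.664 (0.460 to 0.952). Mir98 had 22, 12 and 25 and then 15, 14 and 20. Mirlet7g had 13, 1 and 10 reads in controls and 9, 4 and 9 in mutants, and Mirlet7c-1 had 8, 6 and 8 and then 0, 1 and 10. Mirlet7e, which did not reach a mean of 3 reads, had 2, 5 and 2 in controls and 2, 0 and 0 in mutants. It had the lowest p of the tested let-7 entries (log2 fold change -1.12, limma adjusted p 0.114). These counts overlap between the groups or rest on few reads. Mir99ahg, known as the host transcript of let-7c-1, had 472 to 715 reads in controls and 431 to 565 in mutants. As annotated here, the Mir99ahg entry does not reach the let-7c-1 hairpin on the same chromosome. None of the 10 tested let-7 entries passed an adjusted p of 0.05 in limma, and voom on recovered reads called 0. An unadjusted p under 0.05 was found for 4 of the 10, against 19.6% of all tested genes, the background for the same counts in the lists that follow.

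Among genes that make or turn over let-7, 0 of 27 tested passed the limma threshold in either direction, with 4 at an unadjusted p under 0.05 and 0 called by voom. Their median log2 fold change was -0.14, against -0.125 for all tested genes. Those of lowest p were Ago2, the slicing Argonaute, at -0.42 (limma adjusted p 0.158), Xpo5, which exports hairpins from the nucleus, at -0.36 (0.16), Msi2, an RNA-binding protein of stem and progenitor cells, at 0.33 (0.173), and Dgcr8, the partner of Drosha, at -0.34 (0.237). Other let-7 targets gave 0 of 39, with a median of -0.08, 8 at an unadjusted p under 0.05 and 1 called by voom. Mycn, which keeps progenitors dividing, had the lowest p among them, at 17.5 ± 3.39 RPKM in controls and 26.1 ± 3.57 in mutants (log2 fold change 0.57, limma adjusted p 0.0977). It passed under 3 other scalings and with voom, with an adjusted p of 0.0275 under median-of-ratios. Tgfbr1 had -0.43 (0.111), Arid3a -0.53 (0.132) and E2f6 -0.46 (0.15) in the same fit.

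In the list of Igf2bp partners and RNAs bound by Igf2bp proteins, 1 of 24 tested genes passed, as lower, against 1.81% of all tested genes, a share that 1 gene in so short a list does not set apart. Cd44, a hyaluronan receptor whose messenger RNA Igf2bp proteins are known to bind, was at 6.73, 8.27 and 9.11 RPKM in controls and 3.35, 3.81 and 3.63 in mutants. All mutants were below all controls, with a log2 fold change of -1.05 ± 0.16 (SE) and a limma adjusted p of 0.00356. It passed under all 17 alternatives, at adjusted p between 0.000158 and 0.0344. Elavl1 (-0.39, adjusted p 0.13) and Actb (0.42, adjusted p 0.191) did not pass in limma. The list's median was -0.22, with 7 at an unadjusted p under 0.05 and 2 called by voom, 1 higher and 1 lower.

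Genes listed as relatives of the 9 in sequence, domain or family name gave 1 of 22 past the threshold in limma, as lower. Of all tested genes, 1.81% were past it as lower. The list's median log2 fold change was -0.22, with 6 at an unadjusted p under 0.05 and 1 called by voom. Hmgb1 is a chromatin protein of another HMG family, listed for the shared name only. It was at 66.7, 86.6 and 56.5 RPKM in controls and 45.5, 36.4 and 28.8 in mutants (log2 fold change -0.91, limma adjusted p 0.024). It was past the threshold in 10 of 17 alternatives, and its limma adjusted p was 0.0598 under median-of-ratios scaling, 0.0535 without control 1, 0.149 without mutant 2 and 0.105 without mutant 3. Pcbp4 (-0.54, 0.128), Ybx2 (0.48, 0.18) and Trim32 (-0.31, 0.234) had limma adjusted p above it. For mTOR genes, which set protein synthesis in progenitors, 0 of 14 passed, with 1 at an unadjusted p under 0.05 and 0 called by voom. Their median was -0.19, and the lowest p was that of Akt1s1 at -0.66 (limma adjusted p 0.197), followed by Mtor, Sesn2 and Rptor at -0.31, -0.43 and -0.33 (0.266, 0.274 and 0.287).

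**Figure D4:**
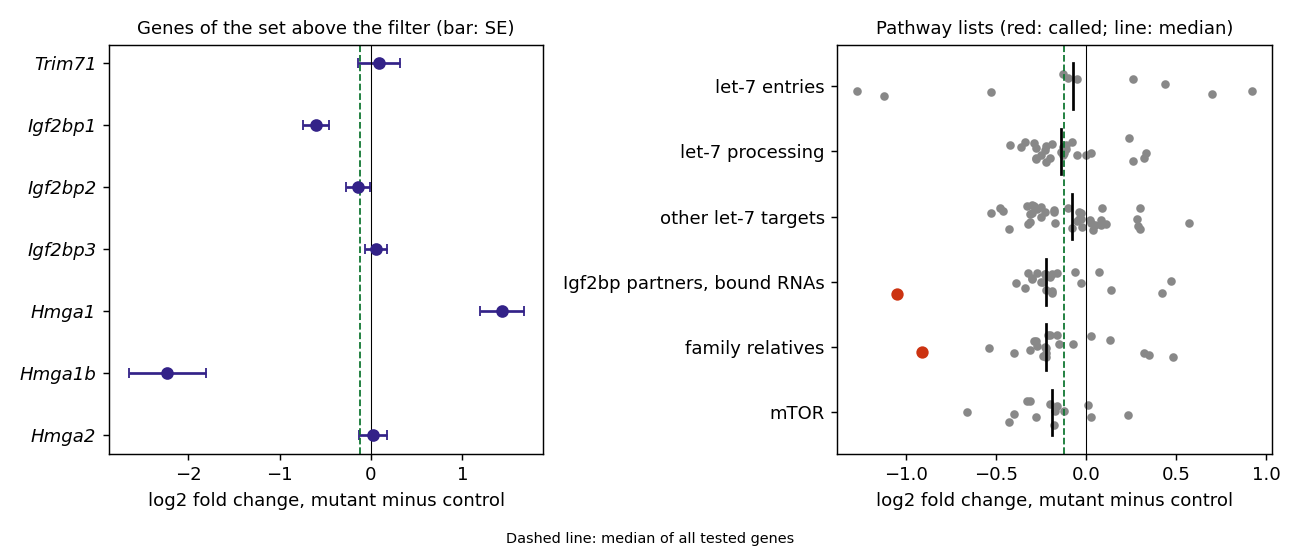
Left, log2 fold change, mutant minus control, with SE for the 7 genes above the filter; right, each tested gene of the 6 pathway lists, with called genes in red (Cd44 and Hmgb1), list medians as black lines and the median of all tested genes, -0.125, dashed. Hmga1 at 1.43 and Hmga1b at -2.23 lie outside the range of all list genes.

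The pattern of each gene over the 6 libraries was set beside 10947 other named genes that averaged 1 RPKM or more. By Pearson's r on log2(RPKM + 0.5), the most alike were Mcm10 for Trim71 (r = 0.9991), Inppl1 for Igf2bp1 (0.9980), Zfp462 for Igf2bp2 (0.9936), Tmem123 for Igf2bp3 (0.9851), Filip1l for Hmga1 (0.9995), Brd3 for Hmga1b (0.9981) and Rps6kb1 for Hmga2 (0.9918). Inppl1 was at 7.97 to 8.06 RPKM in controls and 4.63 to 5.53 in mutants. Rps6kb1 was highest in control 3, at 20.1 RPKM, as Hmga2 was. An r of at least 0.95 was reached by 233 genes for Igf2bp1 and 230 for Hmga1b but by 10 for Igf2bp3. Each gene named here is the best of a search over 10947 genes on 6 points, which by itself favours a high r. The 6 points also share genotype and library, so these are descriptions.

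Of the marker lists of other cell types, the macrophage list separated the groups by its summed level. The summed level of 12 macrophage and leukocyte markers was 5.91 to 9.97 RPKM in controls and 16.6 to 18.3 in mutants, with 3 of 6 tested markers higher by limma and 2 of the 12 under 0.1 RPKM. The 10 renal vesicle markers summed to 97.3 to 118 and 107 to 135 RPKM, with 2 higher and overlapping sums. The 15 progenitor markers summed to 927 to 989 and 728 to 849 RPKM, with every mutant below every control and with 1 marker higher and 2 lower. Lin28b and Hmga1 were higher in the same mutant libraries, and Igf2bp1 and Hmga1b lower; the part of other cell types in these values was not tested. Summed interstitium, podocyte, endothelial, ureteric bud and erythroid markers overlapped between the groups, as the renal vesicle sums did. No marker of any list was at 0 in all 6 libraries.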

How the data were processed

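Nephron progenitors of 3 control and 3 mutant pools were sequenced with paired reads of 100 bases, per the labels' protocols. The submitters' processing notes name mm10, FastQC and limma. The values used are RPKM, scaled by gene length and depth by the authors and deposited as 1 table of 27179 Entrez Gene entries; 25275 matched a RefSeq symbol (GRCm38.p6). Per the file headers, alignments were named after Subread, an alignment package; whether reads with several places were kept is not stated. The counting tool, annotation and strand setting were not given in the sources used here. Of the table's columns, 0 were left unmapped. Depth, counted length and whole reads were recovered from the grid of the RPKM values, whole within 0.1 read for all 13463 tested genes, and the recovered reads summed to 99.71% to 99.76% of the depth. The counted length was the smallest that gave whole reads in all libraries. A gene's length and reads may thus be a whole multiple of those given, while its RPKM is not affected. Whether a unit is a read or a pair is not known.

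The genotype term was fitted in limma 3.58.1 (R 4.3.3) to log2(RPKM + 0.5) wherever the 6 libraries averaged 0.5 RPKM or more. Variances were moderated with a trend on the mean, and two-sided p-values were adjusted by Benjamini-Hochberg, with 0.05 as the threshold. Fold changes on this scale understate those of low genes. The 9 genes and all lists were chosen with earlier results of these data known. Beside the 9 genes, the text names the targeted locus, Six2 and Cited1, the genes with the lowest p of each list (at most 4), let-7 hairpins with a mean of at least 3 reads, and 1 most alike gene each. A gene that this rule names is not reported here. Nothing in the labels says how the pools were made independent, so p-values measure the spread between these pools. Intervals on reads are exact (Clopper-Pearson, 95%), a count of 0 is taken to allow 3 reads, and neither covers more than counting error. Seed sites and shared words were counted with Python 3.11.15 in GENCODE vM21 transcripts, and the pair was aligned with Biopython. The read recovery and the limma fit were tested on simulated data. Alternatives were the pseudocount, filter, scaling, variance model, a replicate block, voom on recovered reads, each library left out and the kind of seed site. Protein sequences were not used here.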

Additional observations from a re-analysis of the deposited data

How the results depend on the processing

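Over the 13463 tested genes 422 were called, 178 higher and 244 lower in mutants; the count was 143 with no filter and 686 with voom on recovered reads. It ranged from 148 to 1083 with 1 library left out, at 210 without control 1, 1083 without control 3, 202, 148 and 243 without mutants 1, 2 and 3. The share of higher calls changed under median-of-ratios scaling, with 282 higher and 154 lower, and under depth without mitochondrial ribosomal RNA, with 268 and 149, as the median log2 fold change moved from -0.125 to -0.012 under the first. Same-numbered libraries correlated at 0.053, 0.157 and 0.153 in their deviations from the group means, so the numbers were not taken as pairing, although each library correlated best with its own number. With a replicate block 393 genes were called, and 1 let-7 entry, Mirlet7d.

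List counts moved by 1 or 2 genes. The let-7 entries had between 0 and 1 call with a library left out. The processing list had 1 call (Msi2) under quantile scaling and without mitochondrial ribosomal RNA. Other let-7 targets had 1 call (Mycn) under the 3 scalings and voom, and 1 (E2f6) without control 3, so between 0 and 1 with a library left out. Igf2bp partners had 2 calls under median-of-ratios, without mitochondrial ribosomal RNA and with voom, and 3 under quantile scaling. The relatives had 0 calls with no filter, no trend, median-of-ratios or without mitochondrial ribosomal RNA, and between 0 and 1 with a library left out (0 without control 1, mutant 2 or mutant 3). The mTOR list had 1 call, Akt1s1, without mutant 3. The cause was not tested.

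Of the 9 genes, between 0 (no filter) and 3 were called. Hmga1 and Hmga1b were each past the threshold in 15 of 17 alternatives and Igf2bp1 in 8. Only 1 of the 9, Igf2bp1, had a site of the deleted cluster when 8 bases were required. The log2 ratio of Hmga1 and Hmga1b together, run under 2 other scalings and with each library left out, lay between -1.52 and -1.10. All of these values use the recovered length of Hmga1.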
